A study of Mus musculus with 20 samples.

Results

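Medium conditioned by APTKA organoids was set against medium conditioned by APTK organoids, in cultured colon fibroblasts and in the arm without irradiation. The libraries were chosen by these labels alone: 4 with APTKA medium and 4 with APTK medium, 8 of the 20 libraries of the series. All expressed genes were compared. APTK and APTKA are names of organoid lines, and the labels do not expand them.

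The fibroblasts came from colon of C57BL6/J mice and were grown in 2 dimensions on culture plates, in Advanced DMEM F12 with 10% fetal bovine serum. Both groups received organoid-conditioned medium for 24 h, so neither is an untreated state. Untreated fibroblasts (4 libraries) and 2 groups of an irradiated arm (5 fractions of 2 Gy, 4 libraries with each organoid medium) were used only for side-by-side values. The sample titles call the untreated fibroblasts wild-type and give no genotype for the fibroblasts of the other groups. The labels give no sex, age or passage, do not say whether fibroblasts, organoids or medium were irradiated, and do not say whether the 4 libraries of a group (I to IV) came from separate cultures. The p-values are therefore set by how far these libraries differ, and that spread could be purely technical. No group given unconditioned organoid medium was analysed here.

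Fibroblasts build the collagen-rich matrix of the gut wall and also act as sentinels that release chemokines and cytokines. The transcription factor NF-kB, which drives much of that inflammatory output, is held in the cytoplasm by inhibitor proteins of the IkB family and switches on the genes of its own inhibitors. Interferon signalling drives a separate antiviral programme, p53 drives genes of cell cycle arrest and cell death, and ATF4 drives amino acid uptake and synthesis under stress.

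Library totals lay between 24.0 and 27.1 M counts with APTK medium and between 21.4 and 28.7 M counts with APTKA medium. The first principal component held 77.2% of the variance of these 8 libraries and separated the media (42.3 to 45.4 with APTK medium, -46.5 to -42.6 with APTKA medium). The mitochondrial share of counts was 0.765 to 0.922% in APTK libraries and 0.404 to 0.598% in APTKA libraries, and the 20 most abundant genes 18.5 to 19.2% and 15.1 to 15.9%. Of the fibroblast markers 13 of 13 were expressed, among them Col1a1, Col1a2, Col3a1 and Fn1 at group means between 7110 and 18200 CPM (counts scaled to library totals corrected by the TMM method). Of these 13 markers 12 were lower with APTKA medium, and their summed level was 55540 to 61550 CPM with APTK medium and 36740 to 40580 CPM with APTKA medium. In such bulk samples fewer cells of a type and less RNA per cell cannot be told apart. Several markers of other cell types were at or near 0: Epcam reached at most 0.105 CPM, Ptprc 0.118 CPM and S100a8 0.131 CPM in any of the 8 libraries, and Cdh5, Cldn5, Cd3e, S100a9 and Cpa3 had no count. Of the marker lists, 3 of 10 epithelial, 4 of 8 endothelial, 4 of 8 leukocyte and macrophage, 3 of 7 glial and neuronal, 2 of 6 adipocyte, 1 of 5 mesothelial, 0 of 6 lymphocyte and 0 of 7 neutrophil and mast cell genes passed the expression filter. The epithelial list summed to 1.57 to 2.64 CPM with APTK medium and 1.58 to 2.73 CPM with APTKA medium, the endothelial list to 1.19 to 2.04 CPM and 1.80 to 2.24 CPM, the leukocyte and macrophage list to 8.16 to 9.83 CPM and 9.22 to 10.2 CPM, and the adipocyte list to 14.8 to 17.9 CPM and 9.85 to 11.2 CPM. The glial and neuronal list summed to 46.4 to 54.5 CPM and 88.7 to 103 CPM, and nearly all of it was Tubb3, a neuronal tubulin, at 44.7 to 53.1 CPM with APTK medium and 86.9 to 102 CPM with APTKA medium (0.90; edgeR, adjusted p = 7.32e-06). On the leukocyte list Cd14, a receptor for bacterial lipopolysaccharide, rose from 1.28 to 1.77 CPM to 3.96 to 4.63 CPM (1.49) and Lyz2, a lysozyme, fell (-1.04). The adipocyte genes Pparg (-0.67) and Fabp4 (-0.55) fell. All 9 pericyte and smooth muscle markers passed the filter and summed to 1102 to 1265 CPM and 860.6 to 945.6 CPM. Passing the filter thus does not tell fibroblasts from these cells. The part of these other markers in the results was not tested.

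Most expressed genes differed between the media. Effects of the organoid line and of the preparation of its medium cannot be told apart here. With edgeR's quasi-likelihood test at a false discovery rate of 5%, 9324 of 14820 tested genes (62.9%) differed between the media. With APTKA medium 4607 genes (31.1%) were higher and 4717 (31.8%) lower. Most differences were small: the median absolute log2 fold change of the called genes was 0.54, and the 5% and 95% quantiles over all tested genes were -1.26 and 0.94. At least 2-fold differences were found for 1756 genes (11.8%), and these were more often falls (1139) than rises (617). For 8851 genes (59.7%) the highest library of one medium lay below the lowest of the other. Fold changes below are log2 values of APTKA over APTK medium with their standard error (SE), and the median over all genes tested was -0.03. Any count of gene list members has to be read against these shares.

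**Figure D1:**
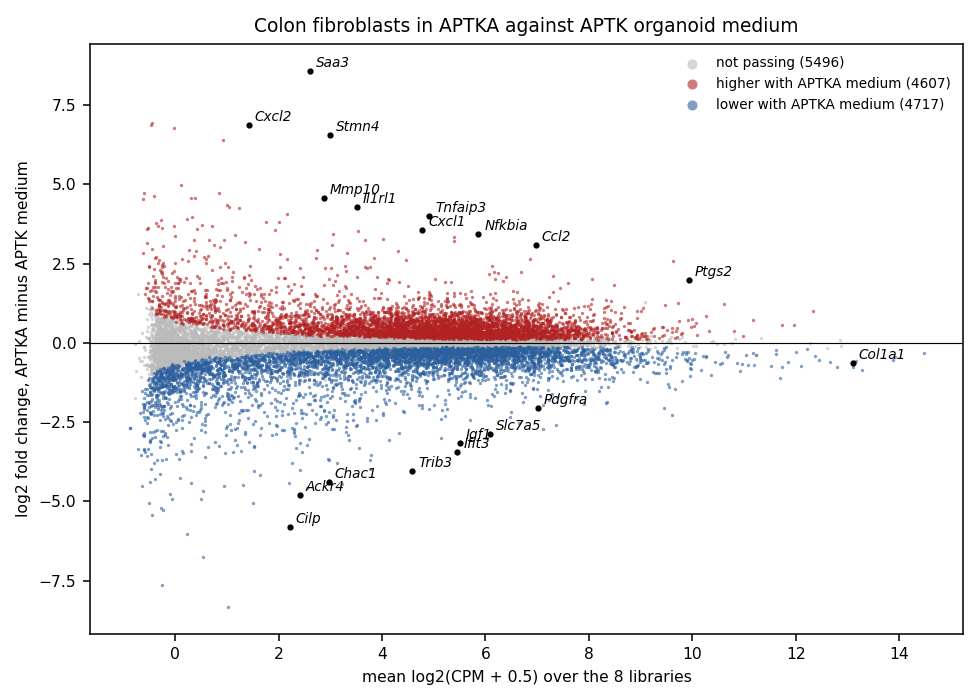
Log2 fold change of APTKA over APTK medium (vertical axis) against mean expression as log2(CPM + 0.5) over the 8 libraries (horizontal axis), 1 point per tested gene. Red points (4607) were higher and blue points (4717) lower with APTKA medium past an adjusted p of 0.05, grey points did not pass; the named rises reach 8.59 for Saa3 and the named falls -5.80 for Cilp.

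Genes for chemokines that attract neutrophils and monocytes were much higher with APTKA medium. Of 6 tested neutrophil-attracting CXC chemokines 5 rose and 1 fell, with a median log2 fold change of 2.66. Cxcl1 (ENSMUSG00000029380, chromosome 5, 90891241 to 90893115), a ligand of the neutrophil receptor CXCR2, stood at 7.18, 8.68, 7.64 and 7.38 CPM in the 4 APTK libraries and at 102, 92.1, 88.9 and 83.0 CPM in the 4 APTKA libraries. Its log2 fold change was 3.56 ± 0.107 (edgeR, adjusted p = 5.59e-19). Cxcl2 (ENSMUSG00000058427, chromosome 5, 90903871 to 90905938), another CXCR2 ligand, was almost silent with APTK medium (0.115, 0, 0.183 and 0.0849 CPM) and was measured at 16.1, 10.2, 11.5 and 10.1 CPM with APTKA medium. In both genes every APTKA library lay far above every APTK library. Cxcl5, of the same receptor group, went from 12.8, 14.7, 15.4 and 11.9 CPM to 102, 145, 146 and 115 CPM (3.21 ± 0.127). Cxcl3 rose from a lower level (2.12), as did Ppbp (1.17). The member that fell was Cxcl15 (-2.43), at 1.31, 0.956, 1.32 and 0.891 CPM against 0.370, 0.280, 0.0870 and 0.0392 CPM.

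Among 11 tested chemokines of other classes 5 rose, 1 fell and 5 did not pass (median 0.49). Ccl2 (ENSMUSG00000035385, chromosome 11, 82035571 to 82037453), the main monocyte attractant, stood at 40.4, 43.1, 48.9 and 40.7 CPM with APTK medium and 339.9, 370.4, 423 and 334 CPM with APTKA medium (3.08 ± 0.182; edgeR, adjusted p = 1.81e-10). In untreated fibroblasts it lay at 33.5 to 47.9 CPM, overlapping the APTK libraries. Its neighbour Ccl7, which acts on the same cells, rose from 97.5, 93.8, 106 and 103 CPM to 367, 361, 390.4 and 374 CPM, and the eosinophil attractant Ccl11 rose by 1.55 from 1.23, 1.65, 2.74 and 1.44 CPM. Cx3cl1, the membrane-bound chemokine fractalkine, went the other way, from 14.1, 14.0, 14.6 and 14.5 CPM to 2.99, 4.56, 3.35 and 2.08 CPM (-2.13 ± 0.199). Cxcl12, the homeostatic stromal chemokine, was at -0.16 and did not pass.

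Cytokine genes split. Of 17 tested cytokines and colony-stimulating factors 9 rose and 6 fell (median 0.53; -0.08, with 2 rises and 2 falls, over the members left by a filter of 5 CPM). Lif, a cytokine of the interleukin-6 family, rose from 3.88, 4.40, 4.28 and 4.41 CPM to 24.7, 19.1, 19.4 and 18.9 CPM (2.27 ± 0.133). Il6 itself was low in every library but did not overlap between media, at 0.768, 0.536, 0.256 and 0.637 CPM against 3.03, 3.15, 3.00 and 3.45 CPM (2.53 ± 0.219). Csf3, which drives neutrophil production, rose from 0.0768, 0.0765, 0.110 and 0.0849 CPM to 1.21, 1.19, 0.957 and 1.37 CPM. Csf2 had 63 counts over the APTKA libraries and 0 over the APTK libraries, at least 20.3-fold higher when the APTK group is set to a floor of 3 counts. Among the falls, Il15, a growth factor of natural killer and memory T cells, went from 15.4, 13.2, 14.3 and 13.8 CPM to 3.57, 2.80, 3.79 and 2.82 CPM (-2.13 ± 0.141), and Kitl, the ligand of the receptor KIT, from 70.0, 71.7, 72.2 and 70.4 CPM to 26.1, 30.9, 30.7 and 28.3 CPM. The alarmin Il33 was also lower (-1.36). The 9 rises were those of Il6, Lif, Il11, Clcf1, Csf1, Csf2, Csf3, Il1a and Il7, and the 6 falls those of Il15, Il34, Il33, Kitl, Ctf1 and Il18.

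Genes of the NF-kB system itself rose together. Of 20 tested NF-kB subunits, inhibitors and kinases 15 were higher (75% against 31.1% over all genes), 1 was lower (2 with upper quartile scaling) and 4 did not pass, with a median of 0.77. Nfkbia (ENSMUSG00000021025, chromosome 12, 55489410 to 55492647), which encodes the inhibitor IkB-alpha, stood at 17.9, 18.6, 17.3 and 16.4 CPM with APTK medium and at 217, 181, 185 and 173 CPM with APTKA medium (3.43 ± 0.0726; edgeR, adjusted p = 1.82e-23). Tnfaip3 (ENSMUSG00000019850, chromosome 10, 19000910 to 19015657), the ubiquitin-editing enzyme A20 that shuts the pathway off, went from 6.34, 7.46, 7.24 and 8.28 CPM to 133, 113, 116 and 105 CPM (4.00 ± 0.0854). Untreated fibroblasts held 16.1 to 17.4 CPM of Nfkbia and 5.30 to 6.28 CPM of Tnfaip3, near or below the APTK libraries. The subunits moved less: Relb rose by 1.61, Rela by 0.83, Nfkb2 by 0.71 and Nfkb1 by 0.39. Other genes of the IkB family rose as well, with Bcl3 at 1.38, Nfkbie at 1.29 and Nfkbib at 1.28, below Relb. Of the IkB kinases, Chuk rose by 0.36, Ikbkg fell (-0.37) and Ikbkb did not pass (0.01). Tnip3 had 41 counts with APTKA medium and 1 with APTK medium (ratio 39.6, exact 95% counting interval 6.72 to 1600.0).

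Of 19 tested survival, adhesion and signalling genes downstream of NF-kB 14 rose and 3 fell (median 0.69; 1 fell without APTKA IV, APTK II or APTK III). Icam1, the leukocyte adhesion molecule, went from 5.34, 5.78, 5.23 and 5.22 CPM to 38.9, 34.2, 35.7 and 30.7 CPM (2.69 ± 0.112). Gadd45b, a stress-inducible survival gene, went from 33.8, 31.4, 32.6 and 33.0 CPM to 165, 158, 154 and 144 CPM. Ier3 stood at 33.8, 32.9, 29.5 and 30.5 CPM and 182, 128, 128 and 129.6 CPM, with APTKA I above the other 3. Zc3h12a, an RNase that degrades cytokine transcripts, rose by 1.79 and the costimulatory receptor Cd40 by 1.40. Vcam1, the other adhesion molecule of the list, fell (-0.53).

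The promoters of 4 of these genes that rose are shown for a short NF-kB element that each holds. The DNA before the annotated start was searched on both strands over 250 bases for the NF-kB forms GGANTTTCC and GGGANTTCC, in RefSeq promoters of GRCm38.p6, the assembly behind mm10. A match was found in 17 of 47 windows (36.2%) of the 35 members of the neutrophil chemokine list and both NF-kB lists in that table and in 2.93% of 13606 windows of all tested genes. The share was 3.43% among all genes called higher and 2.47% among those called lower, both close to that of all genes. List shares of this kind, here and below, count members whatever their direction, so the choice of list sets them and not the comparison. Tnfaip2, which fell (-0.13), also holds a match. The following 80-base stretches read 5′ to 3′ in the direction of the gene, with the matches in capitals, from Cxcl1 at chr5:90891139-90891218 (plus strand), Cxcl2 at chr5:90903767-90903846 (plus strand), Tnfaip3 at chr10:19015411-19015490 (minus strand) and Nfkbia at chr12:55492648-55492727 (minus strand).
Cxcl1: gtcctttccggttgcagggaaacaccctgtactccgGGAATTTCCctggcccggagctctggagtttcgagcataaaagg
Cxcl2: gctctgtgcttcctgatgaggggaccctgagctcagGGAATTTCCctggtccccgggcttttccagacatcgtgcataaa
Tnfaip3: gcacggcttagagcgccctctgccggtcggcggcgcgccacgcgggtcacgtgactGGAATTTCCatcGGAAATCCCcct
Nfkbia: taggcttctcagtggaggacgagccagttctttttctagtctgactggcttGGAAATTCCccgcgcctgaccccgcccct
The stretch of Tnfaip3 holds 2 matches; it lies before the RefSeq start and inside the longer gene span given above, which is from GENCODE. Relb, Nfkb1, Cxcl5 and 7 other tested members were not in the promoter table. A match is a description of these letters and says nothing of whether the factor binds there.

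Acute-phase and prostaglandin genes rose while the interleukin-1 pathway was mixed. Saa3 (ENSMUSG00000040026, chromosome 7, 46711998 to 46715700), a serum amyloid A protein made by stromal cells in inflammation, was close to 0 with APTK medium (0, 0.0765, 0.476 and 0.0849 CPM) and stood at 22.2, 85.5, 93.2 and 61.0 CPM with APTKA medium, the largest rise of the comparison under the naming rule (8.59 ± 0.727; edgeR, adjusted p = 3.11e-08). The 4 APTKA libraries spread widely, with APTKA I the lowest, but none came near the APTK libraries. Ptgs2, the inducible cyclooxygenase COX-2, was abundant in both media and went from 508, 541, 469 and 462 CPM to 2049, 1816, 1910.0 and 2027 CPM (1.98 ± 0.0792). The bradykinin receptors Bdkrb1 (1.69, 3.18, 2.23 and 2.00 CPM to 24.5, 25.6, 27.8 and 21 CPM) and Bdkrb2 (2.44) rose as well. In this list 7 of 12 tested members rose and 3 fell (median 0.24, and 0.14 with only the compared groups fitted; 1 fell without APTKA I, APTKA IV or APTK III). Among 16 tested genes of the interleukin-1 family and its signalling chain 4 rose and 8 fell (median -0.12, and -0.23 with a filter of 5 CPM). Il1rl1, the receptor of interleukin-33, stood out at 2.5, 2.64, 2.23 and 2.00 CPM against 48.8, 47.3, 41.1 and 46.2 CPM (4.29 ± 0.112), whereas Il1r1, the receptor of interleukin-1, fell from 49.7, 57.8, 65.9 and 57.3 CPM to 32.0, 33.0, 32.2 and 32.8 CPM (-0.83 ± 0.0820). Il1a was near the detection limit in both media, at 0.0384, 0.115, 0.0732 and 0.255 CPM against 0.505, 0.210, 0.522 and 0.627 CPM, and the groups overlapped though the test passed (1.94 ± 0.539; edgeR, adjusted p = 0.00272). Il1rn, the receptor antagonist, was below the expression filter, with 2 counts over the APTK libraries and 0 over the APTKA libraries.

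Complement genes mostly fell: 8 of 10 tested members were lower and 1 was higher (median -0.61; 5 were lower with a filter of 5 CPM). The member that rose was C3, the central component, which rose from 0.115, 0.230, 0.219 and 0.509 CPM to 2.89, 6.34, 6.44 and 5.41 CPM (4.29 ± 0.370). C1s1, a protease of the classical pathway, fell from 81.7, 75.2, 90.2 and 85.0 CPM to 39.7, 47.7, 45.3 and 41.8 CPM. In the receptor and feedback genes of the JAK-STAT3 pathway 5 of 16 rose and 8 fell (median -0.20). Il6st, the signalling receptor shared by interleukin-6 and Lif, went from 427, 434, 475 and 462 CPM to 219, 232, 220.2 and 235 CPM (-0.99 ± 0.0819). Socs3, its feedback inhibitor, went from 14.4, 15.4, 14.2 and 14.0 CPM to 7.87, 7.99, 8.09 and 7.02 CPM (-0.90 ± 0.127). The ligand genes Lif and Il6 were thus higher and the shared receptor and Socs3 lower in the same libraries. Other members of the list rose: Cish (1.24) and Junb (1.06) were the only 2 called at least 2-fold different. With 5 rises and 8 falls the list moved in both directions, and Il6st and Socs3 do not stand for all of it.

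**Figure D2:**
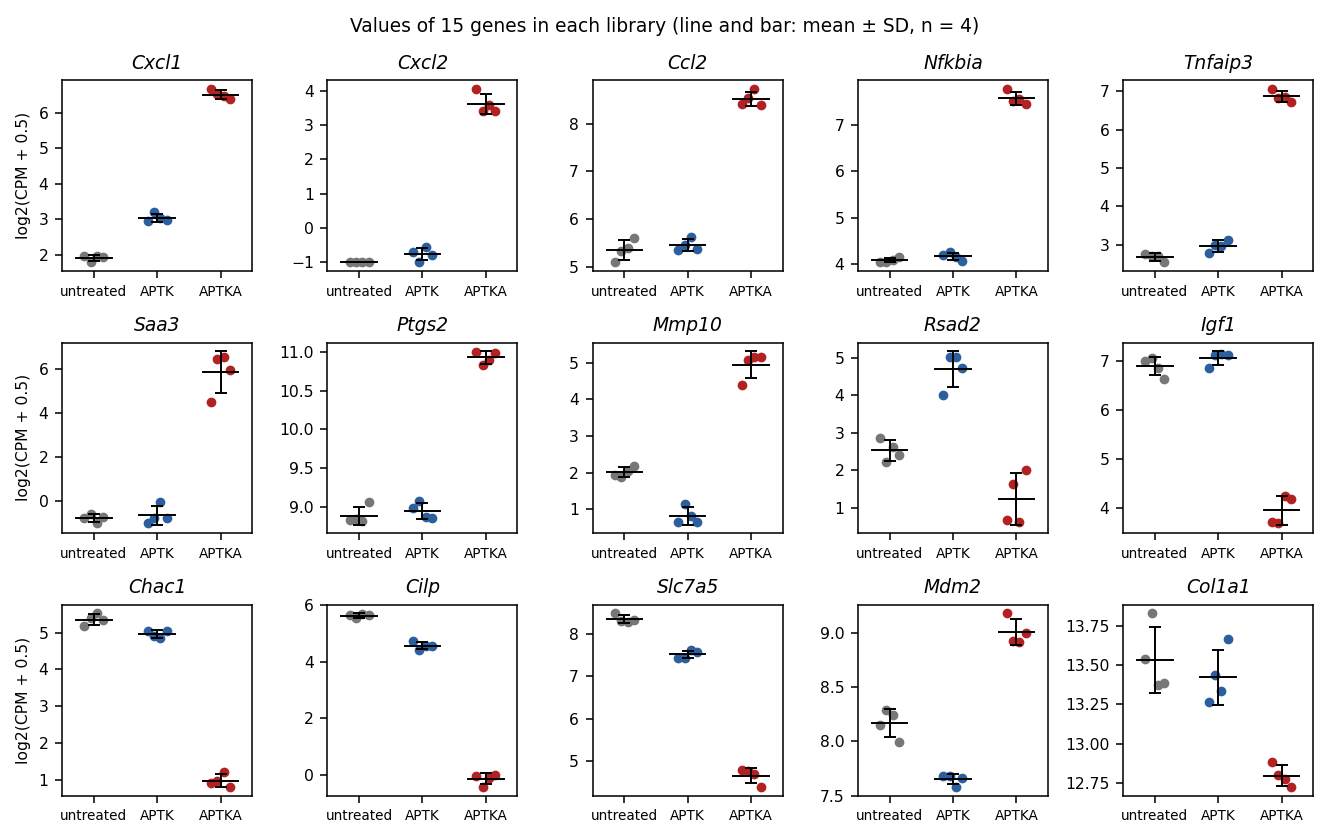
Expression of 15 genes in each library of untreated (grey), APTK (blue) and APTKA (red) fibroblasts, as log2(CPM + 0.5) on a separate vertical axis per gene; points are libraries and the line and bar are the mean and SD of n = 4. In all 15 genes the 4 APTKA points lie apart from the 4 APTK points, above them for Cxcl1 to Mmp10 and Mdm2 and below them for Rsad2, Igf1, Chac1, Cilp, Slc7a5 and Col1a1.

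Genes induced by interferon fell throughout with APTKA medium: all 32 tested members fell, with a median of -2.46 and 26 at least 2-fold lower. Rsad2 (ENSMUSG00000020641, chromosome 12, 26442746 to 26456452), the antiviral enzyme viperin, stood at 15.5, 31.9, 32.0 and 26.1 CPM with APTK medium and 1.11, 2.59, 1.04 and 3.49 CPM with APTKA medium (-3.67 ± 0.414; edgeR, adjusted p = 8.56e-07). Isg15 (ENSMUSG00000035692, chromosome 4, 156199424 to 156200818), a ubiquitin-like modifier, stood at 14.9, 29.4, 34.5 and 28 CPM and 2.69, 2.52, 3.96 and 5.22 CPM (-2.91 ± 0.297). Ifi44 stood at 29.8, 46.5, 58.0 and 44.6 CPM and 2.86, 3.01, 4.09 and 5.80 CPM (-3.52). In each of these genes APTK I was the lowest of the APTK libraries, and yet it lay above every APTKA library. APTKA IV was the highest APTKA library in all 3. The list median was -2.63 without APTK I and -2.87 without APTKA IV. Mx1 had 370 counts over the APTK libraries and 3 over the APTKA libraries (ratio 128, exact 95% counting interval 43.4 to 622), and Oas2 62 and 1 (ratio 64.2, interval 11.1 to 2580.0). The signalling genes of the pathway fell too, with Stat2 at -2.42, Irf7 at -2.18 and Irf9 at -0.93. The smallest falls were those of Ifit2 (-0.37) and Ifi27 (-0.43). The libraries of the media did not overlap in 31 of the 32 genes, against 59.7% of all tested genes.

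Untreated fibroblasts lay between the media in these genes. Rsad2 was at 4.18 to 6.72 CPM, Isg15 at 6.61 to 10.2 CPM and Ifi44 at 14.6 to 20.5 CPM in untreated libraries. Compared with untreated fibroblasts, 28 of the 32 genes were higher with APTK medium (20.9% of all genes were higher and 22.5% lower in that comparison). With APTKA medium 28 of the 32 were lower than in untreated fibroblasts (29.9% of all genes were lower and 31.5% higher). Both counts rest on the same 4 untreated libraries and are given side by side. Iigp1, an interferon-inducible GTPase outside the list, was among the largest falls between the media, from 26.5, 43.6, 48.4 and 42.7 CPM to 1.04, 2.14, 1.04 and 3.22 CPM, with 9.88 to 15 CPM untreated.

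The promoters of 3 members are shown for the element bound by the interferon-activated complex. The core TTTCNNTTT, read on both strands, was found within 250 bases before the start in 14 of 25 windows (56.0%) of the 22 list members in the promoter table and in 6.99% of windows of all tested genes. The stretches are from Rsad2 at chr12:26456516-26456595 (minus strand), Ifit3 at chr19:34583371-34583450 (plus strand) and Isg15 at chr4:156200840-156200919 (minus strand), with matches in capitals.
Rsad2: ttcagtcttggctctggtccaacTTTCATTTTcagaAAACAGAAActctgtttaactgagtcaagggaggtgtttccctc
Ifit3: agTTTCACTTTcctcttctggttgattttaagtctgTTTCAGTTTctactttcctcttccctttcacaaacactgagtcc
Isg15: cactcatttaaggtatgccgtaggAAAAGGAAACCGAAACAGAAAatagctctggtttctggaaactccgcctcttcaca
Rsad2 and Ifit3 hold 2 matches each, and Isg15 holds 3 that overlap into 1 run. Among genes called lower in this comparison as a whole the share was 7.67%, and among those called higher 6.63%, both close to the share of all genes.

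Antigen presentation and guanylate-binding genes fell less deeply. Of 23 tested members 17 were lower and 2 higher (median -0.59; 1 was higher with upper quartile scaling or without APTK I). Psmb8, a catalytic subunit of the immunoproteasome, fell from 8.95, 11.4, 12 and 9.38 CPM to 2.83, 3.75, 3.39 and 3.14 CPM (-1.67 ± 0.134), and Gbp3 fell from 24.1, 36.2, 44.7 and 32.5 CPM to 5.68, 7.36, 7.66 and 8.86 CPM. B2m, the light chain of class I molecules, was lower by 0.59 on the log2 scale, and H2-K1 by 0.25. The members that rose were Tap1 (0.25), a subunit of the peptide transporter, and Tapbpl (0.31). The call of 1 of the 2 was lost without APTK I. Reads of near-identical family members can be split or dropped by the counting, so single values of the Ifit, Gbp, Oas and class I genes are uncertain.

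**Figure D3:**
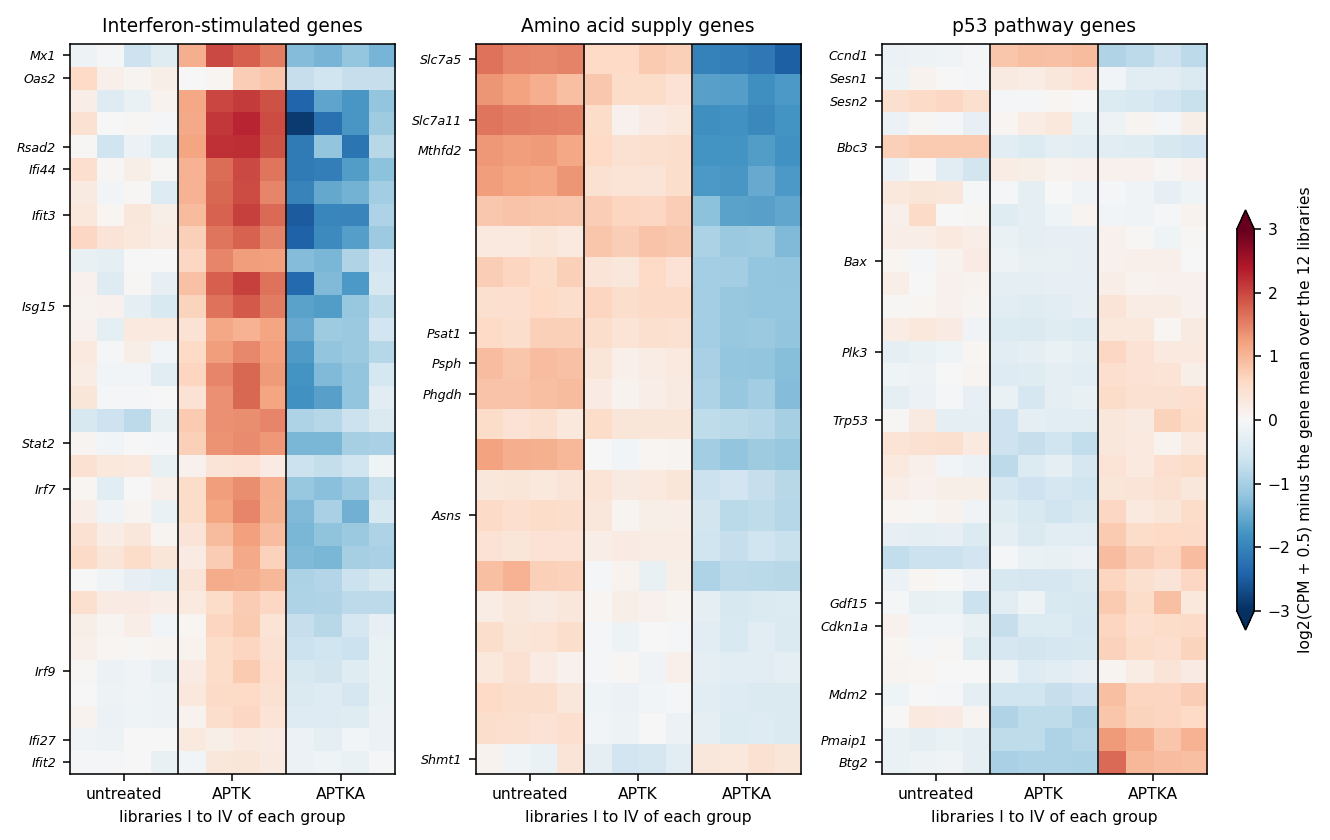
Expression of 32 interferon-stimulated, 24 amino acid supply and 32 p53 pathway genes (rows, with the names of genes described in the text) in the 4 untreated, 4 APTK and 4 APTKA libraries (columns), as log2(CPM + 0.5) minus the mean of the gene over these 12 libraries. Red is above and blue below that mean; between APTK and APTKA medium all 32 interferon-stimulated genes fell, 23 of the 24 amino acid supply genes fell and 24 of the 32 p53 pathway genes rose.

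Genes of the p53 pathway rose. Of 32 tested members 24 were higher (75%), 3 lower and 5 did not pass (median 0.84). Mdm2 (ENSMUSG00000020184, chromosome 10, 117688875 to 117710758), the ubiquitin ligase that p53 induces against itself, stood at 205, 205, 191 and 203 CPM with APTK medium and 579.6, 486, 483 and 513 CPM with APTKA medium (1.36 ± 0.0697; edgeR, adjusted p = 2.41e-15). Cdkn1a, the cell cycle inhibitor p21, went from 115, 138, 139 and 129 CPM to 288, 260.3, 270.0 and 273 CPM (1.07 ± 0.0693). Pmaip1, the death inducer NOXA, went from 19.7, 19.8, 17.6 and 18.6 CPM to 83.3, 73.6, 60.9 and 71.1 CPM, and Trp53 itself from 13.9, 17.6, 16.9 and 17.1 CPM to 27.6, 26.4, 34.9 and 31.7 CPM (0.88 ± 0.113). Every APTKA library lay above every APTK library for these 4 genes. Btg2, an antiproliferative gene, was at 74.2, 77.6, 77.5 and 75.8 CPM and 475, 295, 281 and 275 CPM, with APTKA I far above the other 3. The death gene Bax rose by 0.32 and Bbc3 did not pass (-0.09). The members that fell were Ccnd1, which encodes cyclin D1 (229, 238, 235 and 247 CPM to 68.0, 74.4, 82.5 and 74.2 CPM), Sesn1 (-0.62) and Sesn2 (-0.52). Untreated fibroblasts held 255 to 312 CPM of Mdm2 and 159 to 201 CPM of Cdkn1a, between the media. Against untreated fibroblasts 21 of the 32 were lower and 4 higher with APTK medium (22.5% and 20.9% of all genes). With APTKA medium 19 were higher and 6 lower than in untreated fibroblasts (31.5% and 29.9% of all genes). These counts share the untreated libraries.

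Replication genes rose modestly and mitotic genes showed no common direction. Of 31 tested DNA replication genes 16 were higher and 5 lower (median 0.29; 3 were lower without APTKA I, APTK I or APTK II). Mcm7, a subunit of the replicative helicase, went from 18.6, 18.6, 20.3 and 19.8 CPM to 40.4, 38.3, 39.3 and 37.7 CPM (1.01 ± 0.0567), and Rrm1, a subunit of ribonucleotide reductase, from 86.6, 78.1, 79.6 and 85.1 CPM to 152, 146, 139.6 and 143 CPM. The G1/S cyclin Ccne2 fell (-0.92). Of 25 tested mitotic genes 4 were higher, 5 lower (8 with upper quartile scaling) and 16 did not pass. Mki67, the common marker of cycling cells, was at 10.8, 13.4, 12.1 and 11.8 CPM and 9.62, 12.4, 15.4 and 13.9 CPM, the groups overlapped and the difference did not pass (0.09 ± 0.141; edgeR, adjusted p = 0.605; -0.01 without APTKA III). Cdk1, the mitotic kinase, fell from 20.1, 19.4, 19.8 and 19.3 CPM to 12.2, 11.7, 11.2 and 11.4 CPM (-0.76), while Plk1 rose from a low level (1.00). Of 25 DNA repair genes 8 were higher and 3 lower (6 with upper quartile scaling, with only the compared groups or without APTKA III), and 14 did not pass.

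Amino acid uptake and synthesis genes had the second largest share of falls among the 38 gene lists, after the interferon-stimulated genes. Of 24 tested members 23 were lower and 1 higher (95.8% against 31.8% over all genes lower; median -1.30). Slc7a5 (ENSMUSG00000040010, chromosome 8, 121881150 to 121907694), the importer of large neutral amino acids, stood at 173, 173, 196 and 189 CPM with APTK medium and 27.5, 26.7, 25.4 and 20.6 CPM with APTKA medium (-2.86 ± 0.0846; edgeR, adjusted p = 2.16e-19). Untreated fibroblasts held 312 to 356 CPM, above both. Slc7a11, the cystine importer, went from 16.9, 12.6, 13.7 and 14.4 CPM to 2.83, 2.91, 2.65 and 2.98 CPM, and Mthfd2, a mitochondrial enzyme of folate metabolism, from 86.0, 77.6, 79.7 and 81.8 CPM to 16.1, 16, 17.5 and 15.8 CPM (-2.32 ± 0.0718). Asns, asparagine synthetase, fell less, from 268, 223, 238 and 243 CPM to 145, 119, 124 and 117 CPM (-0.95). The serine synthesis enzymes Psat1, Psph and Phgdh fell by 1.59, 1.43 and 1.31 on the log2 scale. The member that rose was Shmt1, a cytosolic serine hydroxymethyltransferase (0.87).

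The regulators of the integrated stress response fell in 12 of 19 cases and rose in 3 (median -0.52). Chac1 (ENSMUSG00000027313, chromosome 2, 119351229 to 119354381), a glutathione-degrading enzyme induced by ATF4, went from 32.7, 29.2, 28.4 and 32.3 CPM to 1.38, 1.47, 1.83 and 1.26 CPM (-4.37 ± 0.223; edgeR, adjusted p = 1.94e-12). Trib3, a pseudokinase of the same response, went from 105, 83.8, 90.9 and 93.8 CPM to 6.49, 5.96, 5.09 and 5.22 CPM (-4.03 ± 0.298). Atf5 went from 133, 134, 146 and 137 CPM to 36.6, 36.1, 33.5 and 31.5 CPM, and Atf4 itself from 425, 375, 392 and 386 CPM to 308, 292, 297 and 294 CPM (-0.41 ± 0.0529). Untreated fibroblasts held 35.7 to 45.4 CPM of Chac1 and 114 to 183 CPM of Trib3, above both media. The 3 rises were those of Atf3 (0.845, 0.650, 0.988 and 1.06 CPM to 25.1, 10.7, 13.3 and 10.7 CPM), Gdf15 (1.06) and Ppp1r15a (0.96), of which Gdf15 is also in the p53 list. Of 20 tested cytosolic tRNA synthetases 10 fell and 6 rose (median -0.12, and -0.19 with upper quartile scaling). Cars, the cysteinyl enzyme, fell by 1.03 on the log2 scale, whereas both subunits of the phenylalanyl enzyme rose (Farsa 0.72, Farsb 0.93).

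The promoters of Chac1, Slc7a11 and Atf3 are shown for the composite element of ATF4 and C/EBP proteins. The letters TGATGNAA, read on both strands, were found within 250 bases before the start in 8 of 43 windows (18.6%) of 36 stress and amino acid list members and in 2.03% of windows of all tested genes. It was 1.82% among all genes called higher and 2.29% among those called lower. The stretches are from Chac1 at chr2:119351013-119351092 (plus strand), Slc7a11 at chr3:50443617-50443696 (minus strand) and Atf3 at chr1:191183400-191183479 (minus strand), with matches in capitals.
Chac1: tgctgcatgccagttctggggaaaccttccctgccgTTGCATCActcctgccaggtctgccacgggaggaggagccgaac
Slc7a11: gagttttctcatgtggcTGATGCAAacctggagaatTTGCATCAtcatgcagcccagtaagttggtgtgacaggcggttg
Atf3: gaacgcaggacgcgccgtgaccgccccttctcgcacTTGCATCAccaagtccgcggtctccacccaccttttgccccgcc
Slc7a11 holds 2 matches. The genes of the first and second stretch fell (-4.37 and -2.34), and Atf3, which holds the same letters as Chac1, rose (4.08).

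Genes for protein folding in the endoplasmic reticulum fell: 20 of 23 tested members were lower and 2 higher (median -0.62; 1 was higher with upper quartile scaling). Hspa5, the main chaperone BiP, went from 1428, 1299, 1340.0 and 1327 CPM to 629, 579, 551 and 593 CPM (-1.20 ± 0.0502), and the chaperone Calr from 1347, 1356, 1369 and 1290.0 CPM to 523, 486, 449 and 499 CPM. Herpud1, of the degradation machinery, went from 215, 191, 202 and 197 CPM to 57.6, 55.4, 54.3 and 52.6 CPM (-1.87 ± 0.0556). The summed level of the list was 10400.0 to 10620.0 CPM with APTK medium and 5591 to 6212 CPM with APTKA medium. The stress sensors Ern1 (0.45) and Atf6 (0.16) were the members that rose.

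Sterol and fatty acid synthesis genes fell in 27 of 32 cases and rose in 3 (median -0.82). Msmo1, an enzyme of the late cholesterol pathway, went from 91.9, 103, 91.4 and 88.3 CPM to 27.8, 28.3, 28.3 and 30.5 CPM (-1.70 ± 0.0792), and the sterol sensor partner Insig1 from 46.1, 53.9, 45.8 and 45.2 CPM to 17.3, 13.8, 15.4 and 13.3 CPM. The sterol exporters Abca1 (0.77) and Abcg1 (0.93) and the escort protein gene Scap (0.26) rose. Ch25h, which makes 25-hydroxycholesterol, was among the largest rises of the comparison, from 1.23, 0.765, 0.695 and 0.721 CPM to 7.67, 14.2, 14.6 and 12 CPM (3.82 ± 0.242). The sterol response core TCACNCCAC was found in 1 of 27 promoter windows (3.70%) of 21 list members and in 1.04% of all windows.

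Of 25 tested antioxidant genes regulated by NRF2 14 fell and 6 rose (median -0.29). Gclm, the modifier subunit of glutamate-cysteine ligase, went from 35.0, 35.4, 31.1 and 31.8 CPM to 13.2, 12.7, 15 and 14.2 CPM, while Gss, the next enzyme of glutathione synthesis, rose from 23.8, 22.3, 23.1 and 24.4 CPM to 67.1, 61.8, 59.6 and 57.2 CPM (1.39 ± 0.0744). Glycolysis and hypoxia genes fell in 21 of 34 cases and rose in 4 (median -0.31). Pdk1, an inhibitory kinase of pyruvate dehydrogenase, went from 79.9, 77.9, 75.5 and 76.2 CPM to 37.5, 39.7, 34.9 and 37.8 CPM (-1.05 ± 0.0570), and the lactate exporter Slc16a3 from 144, 145, 139 and 146 CPM to 96.4, 95.7, 101 and 93.7 CPM. Untreated fibroblasts held 13.6 to 18.6 CPM of Slc16a3, below both media. Egln3, an oxygen-sensing hydroxylase, rose (1.32), and Vegfa, a hypoxia target counted among the growth factors, did not pass (-0.03). Of 7 tested mitochondrially encoded genes 6 fell (median -0.84), and the seventh, mt-Nd6, was at -1.17 and did not pass. This list moves with the share of mitochondrial counts given above, and how far that share reflects RNA quality was not tested.

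The matrix programme was lower with APTKA medium. Of 21 tested collagen genes 18 fell, 1 rose and 2 did not pass (median -0.77). Col1a1, the main fibrillar collagen chain, stood at 11056 ± 1384 CPM with APTK medium and 7108 ± 329 CPM with APTKA medium (mean ± SD, n = 4), a log2 fold change of -0.64 ± 0.125 (edgeR, adjusted p = 0.000174). Larger falls were found in chains of collagen VI (Col6a1 -1.40, Col6a2 -1.52), in Col11a1, from 408, 382, 374 and 404 CPM to 129, 125, 101 and 119 CPM (-1.73 ± 0.0679), and in Col8a2, from 23.1, 22.5, 28.5 and 26.1 CPM to 1.88, 2.07, 1.74 and 2.00 CPM (-3.70 ± 0.174). Col5a3 was the member that rose (0.95). The list summed to 91890.0 to 100700.0 CPM with APTK medium and 57850.0 to 65700.0 CPM with APTKA medium.

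Of 32 tested elastic fibre and matrix glycoprotein genes 22 fell and 7 rose (median -0.61). Cilp (ENSMUSG00000042254, chromosome 9, 65265180 to 65280605), a secreted glycoprotein of cartilage and fibrotic tissue, went from 26.2, 20.9, 22.9 and 23.2 CPM to 0.471, 0.245, 0.435 and 0.510 CPM, the largest fall under the naming rule (-5.80 ± 0.173; edgeR, adjusted p = 3.79e-20). Eln, elastin, went from 18.7, 20.6, 17.3 and 25.3 CPM to 5.21, 5.43, 6.66 and 3.33 CPM, and Prelp, a small leucine-rich proteoglycan, from 9.60, 11.9, 18.4 and 14.6 CPM to 1.18, 1.37, 1.48 and 1.49 CPM. Untreated fibroblasts held 45.6 to 51.1 CPM of Cilp, above both media. The members that rose include the provisional-matrix genes Tnc (1.02), Vcan (0.68) and Postn (0.56) and the cytokine-like Spp1, osteopontin (14.3, 12.1, 14.7 and 11 CPM to 152, 122, 121 and 130.3 CPM), which overlaps the annotated gene Gm42793 on the same strand. Fn1, fibronectin, did not pass (0.09). Of 16 tested collagen-modifying and crosslinking enzymes 14 fell and 1 rose (median -0.50). P4ha1, a collagen prolyl hydroxylase, went from 884, 859, 876 and 901 CPM to 465, 453, 452 and 471 CPM, and P4ha3 from 13.5, 18.5, 19.2 and 18.3 CPM to 3.36, 3.08, 3.31 and 3.88 CPM. Loxl1, the member that rose (0.20), lost the call with upper quartile scaling, with a filter of 5 CPM and without APTKA I, APTKA II, APTKA III or APTK I.

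Matrix proteases split into strong rises of a few secreted metalloproteinases and moderate falls of others. Of 24 tested members 11 rose and 10 fell (median -0.02, and 0.09 with only the compared groups fitted). Mmp10 (stromelysin-2) went from 1.08, 1.72, 1.28 and 1.06 CPM to 20.4, 33.4, 35.0 and 35.0 CPM (4.58 ± 0.411; edgeR, adjusted p = 5.57e-08), and Mmp9, a gelatinase, from 3.5, 2.95, 3.26 and 2.89 CPM to 32.7, 41.5, 35.8 and 37.2 CPM (3.54 ± 0.198). Mmp3 and Mmp13 rose by 4.25 and 3.69 from 0.384, 0.191, 0.585 and 0.170 CPM and 0.269, 0.383, 0.256 and 0.0424 CPM. Mmp2, the constitutive gelatinase, fell (-0.69), as did Adamts9 (-1.72). The inhibitors fell in 7 of 9 cases (median -0.71). Timp3, a matrix-bound inhibitor, went from 128, 135, 133 and 139 CPM to 52.8, 51.7, 54.3 and 53.1 CPM (-1.33 ± 0.0578), and Reck from 30.7, 34.0, 36.5 and 35.3 CPM to 13, 13.4, 14.0 and 12.5 CPM. Of the 2 members that rose, Timp1 went from 71.8, 70.6, 64.5 and 70.1 CPM to 151, 133, 130.0 and 135 CPM. Timp3 overlaps Syn3 on the opposite strand.

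Contractile and TGF-beta genes showed no common direction. Of 20 tested contractile genes 8 fell and 5 rose (median -0.05; -0.14, with 3 rises, for a filter of 5 CPM). Acta2, smooth muscle actin and the usual marker of myofibroblasts, was at 3333, 3603, 3197 and 3494 CPM with APTK medium and 2844, 2689, 3163 and 2865 CPM with APTKA medium (-0.24 ± 0.0740; edgeR, adjusted p = 0.00679). The groups did not overlap, though the nearest libraries lay close together. Mylk, myosin light chain kinase, fell more, from 409, 449, 425 and 450.3 CPM to 199, 191, 204 and 209 CPM (-1.11), and Des, desmin, rose from a low level (0.69). Of 20 tested TGF-beta ligands, receptors and targets 9 rose and 7 fell (median 0.05, and -0.02 with upper quartile scaling). Tgfb1 was at 14.3, 16.5, 14.8 and 19.7 CPM and 16, 16.7, 16.4 and 17.0 CPM, the groups overlapped, and the difference did not pass (0.02 ± 0.111; edgeR, adjusted p = 0.879). Its sign turned with upper quartile scaling (-0.05), with a filter of 5 CPM (-0.01) and without APTK I (-0.04) or APTK III (-0.02). Tgfb2 rose from 85.5, 95.8, 78.5 and 90.5 CPM to 188, 162, 174 and 174 CPM (1.00 ± 0.0773), and Tgfbr1, a receptor chain, fell from 109.9, 126, 115 and 119 CPM to 59.6, 57.9, 53.8 and 52.0 CPM (-1.07 ± 0.0740).

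Among the signals that fibroblasts send to the epithelium, single genes moved strongly in both directions. Of 24 tested Wnt, R-spondin and BMP genes 9 rose and 9 fell (median -0.05, -0.26 with a filter of 5 CPM, and 0.04 without APTKA III). Bmp2 went from 0, 0.0765, 0.0732 and 0.127 CPM to 3.26, 6.41, 6.09 and 8.86 CPM, and its antagonist Nog from 0.230, 0.191, 0.110 and 0.297 CPM to 1.38, 1.61, 1.52 and 1.80 CPM. Rspo2, which strengthens Wnt signalling, rose by 2.64, while Sfrp1, a Wnt antagonist, fell from 16, 16.8, 18.3 and 15.3 CPM to 2.39, 3.43, 3.22 and 2.35 CPM (-2.55 ± 0.185). Of 25 tested growth factor genes 12 rose and 11 fell (median 0.29, and 0.13 with only the compared groups fitted; 7 fell with a filter of 5 CPM). Igf1 (ENSMUSG00000020053, chromosome 10, 87858265 to 87937042), insulin-like growth factor 1, went from 115, 139, 142 and 139 CPM to 12.5, 12.3, 18.2 and 17.6 CPM (-3.15 ± 0.147; edgeR, adjusted p = 1.26e-12), while untreated fibroblasts held 99.5 to 133 CPM. Nrg1, a ligand of the ERBB3 receptor, rose from 34.5, 34.7, 36.9 and 38.9 CPM to 158, 138, 139.5 and 149 CPM (2.01 ± 0.127), and Fgf7, keratinocyte growth factor, from 41.7, 43.4, 38.8 and 39.7 CPM to 169, 157, 146 and 165 CPM (1.96 ± 0.0878). Areg, a ligand of the epidermal growth factor receptor, had 43 counts against 3 (ratio 13.8, exact 95% counting interval 4.43 to 69.7).

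Of 18 tested growth factor receptors 7 rose and 6 fell (median -0.04, and -0.11 with upper quartile scaling). Pdgfra (ENSMUSG00000029231, chromosome 5, 75152292 to 75198215), a receptor of platelet-derived growth factor and a defining fibroblast marker, stood at 272, 258, 258 and 263 CPM with APTK medium and 52.5, 69.1, 67.3 and 64.0 CPM with APTKA medium (-2.06 ± 0.0875). Untreated fibroblasts held 76.5 to 89.8 CPM, closer to APTKA medium. Pdgfrb went from 837, 891, 799.9 and 923 CPM to 362, 361, 396 and 338 CPM (-1.25 ± 0.0566), with 886 to 897 CPM untreated, closer to APTK medium. Of 26 tested immediate early and MAPK feedback genes 12 fell and 10 rose (median -0.28). Jun rose from 43.0, 41.5, 43.8 and 37.5 CPM to 223, 161, 161 and 150.1 CPM (2.07 ± 0.130), and the phosphatase Dusp10 by 1.56. The feedback inhibitor Spry1 fell from 75, 78.2, 87.0 and 85.6 CPM to 22.4, 27.2, 26.7 and 25 CPM (-1.69 ± 0.0785), and the ERK-induced factors Etv5 (-1.78) and Etv1 (-1.73) and the phosphatase Dusp6 (-1.19) fell with it. Of 16 tested genes of quiescent and adventitial fibroblasts 9 fell and 6 rose (median -0.69). Mgp, matrix Gla protein, went from 48.3, 39.1, 48.8 and 47.9 CPM to 2.42, 4.98, 4.18 and 2.82 CPM (-3.68 ± 0.421), Ly6a from 10.1, 10.6, 9.91 and 9.63 CPM to 1.95, 2.35, 2.96 and 2.08 CPM and Igfbp4 from 58.9, 57.3, 66.4 and 65.7 CPM to 14.1, 16.3, 19.3 and 14.5 CPM, while Dpt (1.23) and Klf4 (1.12) rose. Pi16, a marker of adventitial fibroblasts, was below the expression filter, with 22 counts over the APTK and 11 over the APTKA libraries.

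**Figure D4:**
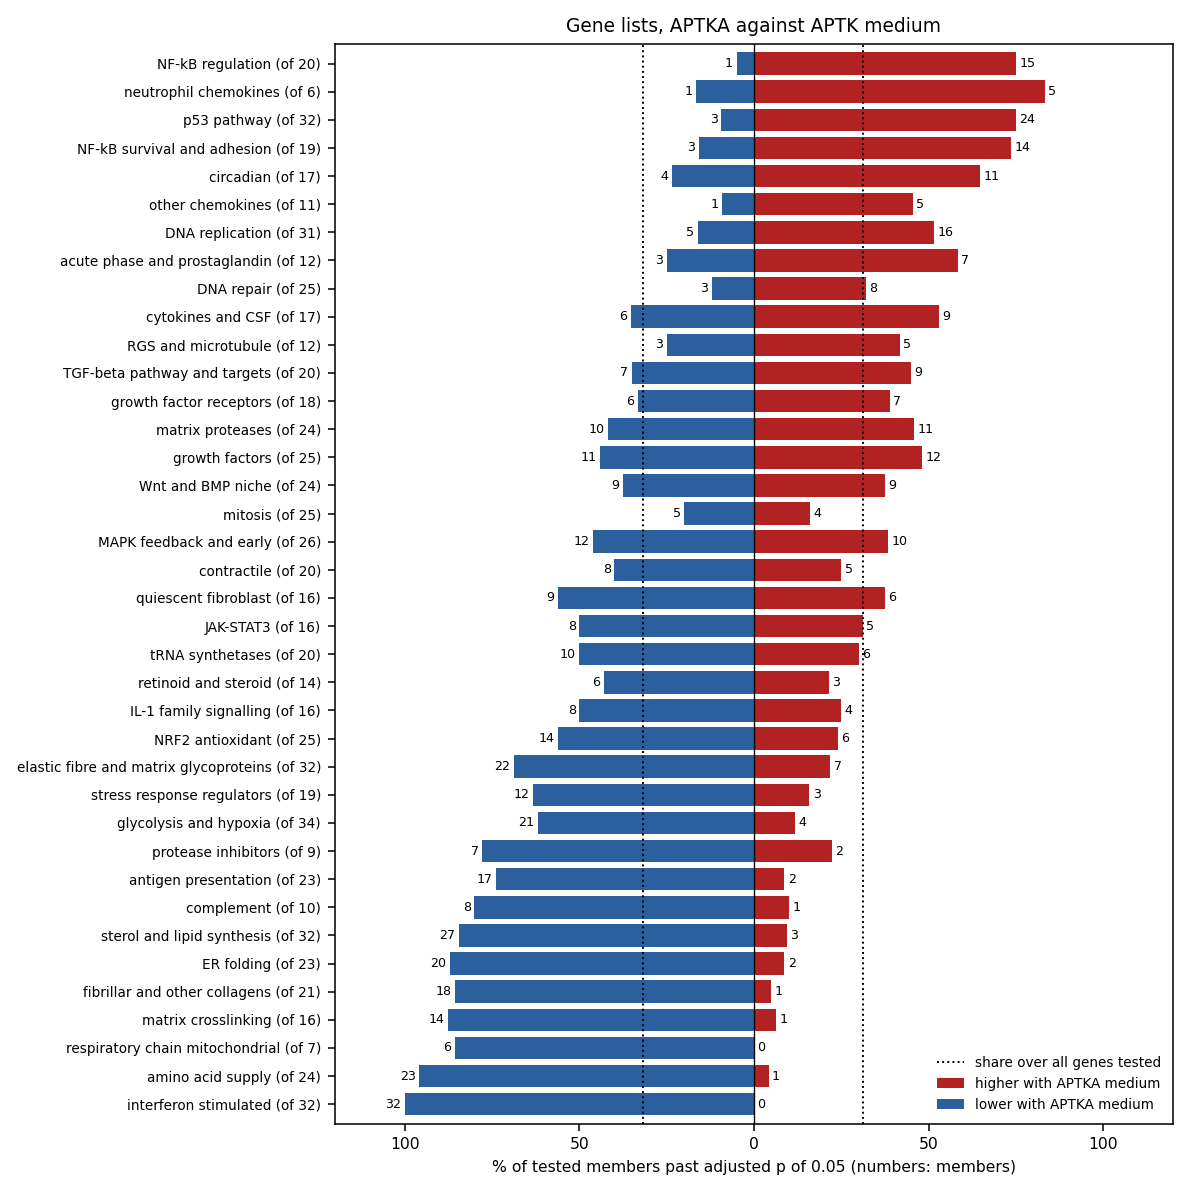
Share of the tested members of each of 38 gene lists that were higher (red, right) or lower (blue, left) with APTKA medium past an adjusted p of 0.05, with the number of members at the bar ends. The dotted lines mark the shares over all 14820 genes (31.1% and 31.8%); 15 lists had more members higher, 22 more lower and 1 as many of each.

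Some of the strongest changes were in genes not yet described. Stmn4 (ENSMUSG00000022044, chromosome 14, 66344296 to 66361680), a stathmin that binds tubulin and is best known from neurons, went from 1.04, 0.536, 0.512 and 0.382 CPM to 68.7, 53.1, 54.5 and 58.2 CPM (6.55 ± 0.139; edgeR, adjusted p = 1.82e-23). Ackr4, an atypical receptor that removes chemokines, went from 21.3, 19.7, 26.0 and 21.5 CPM to 0.908, 0.736, 0.653 and 0.824 CPM (-4.81 ± 0.352), with 6.56 to 7.43 CPM untreated. Abca8a, a lipid transporter, went from 23.6, 19.7, 24.8 and 25.4 CPM to 0.841, 1.30, 0.740 and 1.02 CPM, and G0s2, an inhibitor of lipolysis, from 17.6, 13.7, 17.7 and 17.6 CPM to 0.673, 1.12, 0.827 and 0.431 CPM. Cldn1, a tight junction protein, went from 15.9, 11.3, 17.0 and 14.9 CPM to 1.21, 0.981, 0.740 and 1.29 CPM, and Ccdc3 from 27.0, 28.7, 31.8 and 28.9 CPM to 1.58, 2.59, 2.00 and 2.2 CPM. In all of these genes every library of one medium lay clear of every library of the other. Ackr4 and Ccdc3 overlap other genes on the opposite strand, and the strand setting of the counting is not given in the sources used here.

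The irradiated arm offers the same contrast in 8 other libraries. There 9090 genes (61.3%) differed between irradiated APTKA and irradiated APTK medium. Of them 7880 had also been called in the same direction without irradiation, 84.5% of the calls without and 86.7% of the calls with irradiation, and 10 were called in opposite directions. Among the 1756 genes at least 2-fold different without irradiation, 1570 (89.4%) were called in the same direction. Across genes, which are not independent replicates, Pearson's r between the arms was 0.92. In log2, Cxcl1 was at 3.88 in that arm against 3.56, Nfkbia at 3.29 against 3.43, Rsad2 at -3.63 against -3.67, Mdm2 at 1.21 against 1.36 and Slc7a5 at -2.51 against -2.86. Other genes lay further apart: Mmp10 at 2.31 against 4.58, Spp1 at 1.54 against 3.33 and Socs3 at -0.18, not passing, against -0.90. None of these differences between arms passed. Of the 25 mitotic genes 2 were higher and 17 lower in the irradiated arm, where 4468 of all genes were higher and 4622 lower.

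A difference of the contrast between the arms passed for 27 genes (0.182%), and 1337 reached an unadjusted p under 0.05. DESeq2 gave 112 such genes, and leaving out 1 library gave 4 (without APTKA II) to 307 (without irradiated APTK IV). In some named genes irradiated APTK IV lay apart from irradiated APTK I to III. Spp1 was at 60.6, 64.0, 67.0 and 10.6 CPM in irradiated APTK I to IV, and Ccnd1 at 366, 370, 380 and 194 CPM. Ackr4 was at 41.1, 50.4, 42.5 and 15.7 CPM. In others, such as Tnfaip3 (6.87, 7.05, 7.68 and 7.03 CPM), it did not. The count of 27 thus does not measure how alike the arms are. The count was 5 to 11 without APTKA III, APTKA IV, APTK II, APTK IV, irradiated APTKA I, irradiated APTKA III or irradiated APTK III, 16 without irradiated APTKA II and 43 without irradiated APTK II. Lif rose less in the irradiated arm (1.36 against 2.27), as did Gja1, the gap junction protein connexin 43 (0.57 against 1.38). Spry2, a feedback inhibitor of receptor tyrosine kinases, fell more (-1.08 against -0.28), and so did Spry1 (-2.29 against -1.69). Slc7a11 and Pdgfrb fell less (-1.60 against -2.34 and -0.81 against -1.25). Plk3, a stress-responsive kinase of the p53 list, was at 0.72 without and -0.07 with irradiation, and that difference passed (edgeR, adjusted p = 0.00931). Of these 7 differences, those of Spry2 and Plk3 passed without each of the 16 single libraries. The others no longer passed without some of them (edgeR, adjusted p from 0.0505 to 0.0962). Gja1 was lost without APTKA II, Spry1 without APTKA II, III or IV, APTK II or irradiated APTKA I, and Pdgfrb without APTKA II or IV, APTK II or IV or irradiated APTKA I. Slc7a11 was lost without APTKA II, III or IV, APTK IV, irradiated APTKA I or II or irradiated APTK I or III, with limma-voom and with only the compared groups. Lif was lost with limma-voom and without 12 of the 16 libraries, and held without each of the other 4, irradiated APTKA II and III and irradiated APTK II and IV.

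**Figure D5:**
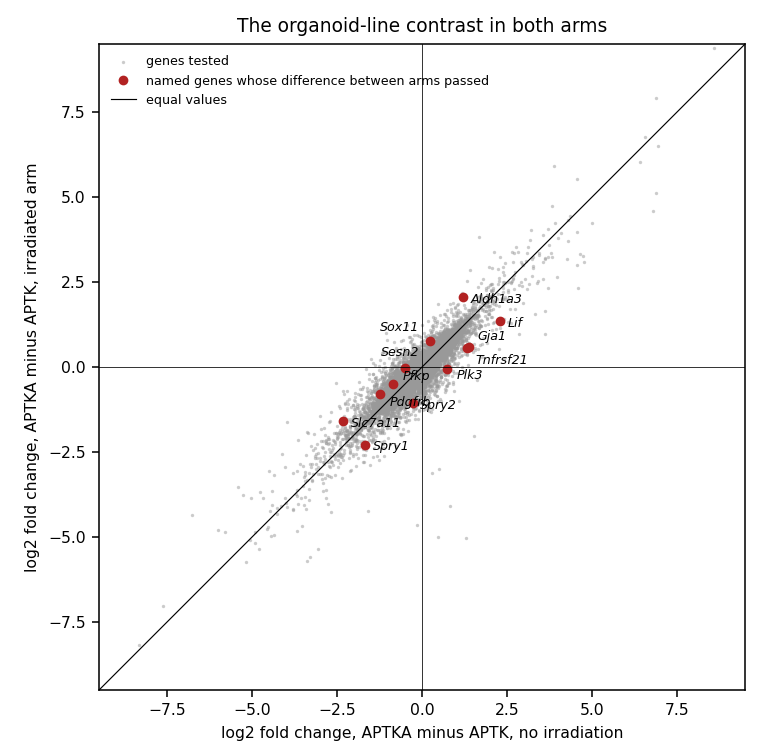
Log2 fold change of APTKA over APTK medium in the irradiated arm (vertical axis) against that without irradiation (horizontal axis), 1 point per tested gene, with the line of equal values. Red points are 12 named genes whose difference between the arms passed an adjusted p of 0.05, among them Lif at 2.27 and 1.36 and Spry2 at -0.28 and -1.08.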

How the data were processed

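PolyA RNA of cultured mouse colon fibroblasts was sequenced. Per the submitters' processing notes, the genome build was mm10 and the tools were STAR 2.5.2a, featureCounts 1.5.0-p1 and bcl2fastq 2.20.0.422. Annotation release, strand setting and handling of multiply mapped reads were not given in the sources used here. The authors deposited whole-number counts per gene for each library. Symbols and positions came from GENCODE M21 (47310 of 47729 genes matched).

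The counts were fitted with edgeR 4.0.16 (R 4.3.3; TMM, filterByExpr, robust quasi-likelihood) over all 20 libraries and 5 group means, and p-values were adjusted over 14820 genes by Benjamini-Hochberg. Normalised CPM are descriptive, and intervals and floors (3 counts) cover counting error only. DESeq2 1.42.0, limma 3.58.1, other scalings, filters and sample sets were alternatives. The script was tested on simulated data. Named genes were the 12 largest called, non-overlapping changes in each direction at a mean log2(CPM + 0.5) of at least 2, up to 5 called members per list reaching 1 CPM, 8 differing between arms and 32 chosen genes. Members named beyond that rule were chosen after their values were seen. The comparison, lists and genes were chosen with earlier results of these data known.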

Additional observations from a re-analysis of the deposited data

Results flagged for a closer look

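The 214 named genes in each medium without irradiation gave 428 groups of 4 libraries. In 17 of them (3.97%) 1 library lay far from the other 3. The gap to the nearest library, as a share of the range, exceeded the 95% critical value of the Dixon test in each of the 17. Chance alone flags about 1 in 20 of independent, unselected groups. These genes share libraries and many were named for not overlapping between media, so that rate cannot tell whether outlying libraries were common. The irradiated groups were not searched. APTKA I was the lowest library for Mmp10 (0.886; 20.4 CPM against 33.4 to 35.0 CPM) and mt-Nd1 (0.865; 126 CPM against 148 to 151 CPM). APTKA I was the highest library for Lif (0.907; 24.7 CPM against 18.9 to 19.4 CPM), Ier3 (0.964; 182 CPM against 128 to 129.6 CPM), Jun (0.852; 223 CPM against 150.1 to 161 CPM) and Btg2 (0.898; 475 CPM against 275 to 295 CPM). APTK I was the lowest library for P4ha3 (0.848; 13.5 CPM against 18.3 to 19.2 CPM), Igf1 (0.899; 115 CPM against 139 to 142 CPM) and Trp53 (0.830; 13.9 CPM against 16.9 to 17.6 CPM). APTK I was the highest library for Ch25h (0.869; 1.23 CPM against 0.695 to 0.765 CPM). APTK II was the lowest library for G0s2 (0.958; 13.7 CPM against 17.6 to 17.7 CPM) and Mgp (0.913; 39.1 CPM against 47.9 to 48.8 CPM). APTK II was the highest library for Insig1 (0.902; 53.9 CPM against 45.2 to 46.1 CPM). APTK III was the lowest library for mt-Nd4 (0.835; 26.5 CPM against 29.2 to 29.8 CPM) and Mdm2 (0.833; 191 CPM against 203 to 205 CPM). APTKA II was the lowest library for Chaf1b (0.883; 9.57 CPM against 10.2 to 10.3 CPM). APTKA III was the highest library for Slc6a9 (0.909; 4.87 CPM against 4.10 to 4.17 CPM). APTKA I was named 6 times and APTK I 4 times. All 17 genes were called in the comparison, under every alternative that leaves out 1 library.

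The contrast between the media differed between the arms in 12 named genes by the interaction term of edgeR, given as the irradiated minus the plain log2 fold change. It was lower in the irradiated arm for Lif (-0.917; 2.27 without and 1.36 with irradiation; adjusted p = 0.0303), Spry1 (-0.600; -1.69 without and -2.29 with irradiation; adjusted p = 0.0184), Spry2 (-0.791; -0.28 without and -1.08 with irradiation; adjusted p = 0.00931), Plk3 (-0.791; 0.72 without and -0.07 with irradiation; adjusted p = 0.00931), Gja1 (-0.813; 1.38 without and 0.57 with irradiation; adjusted p = 0.0154) and Tnfrsf21 (-0.781; 1.33 without and 0.55 with irradiation; adjusted p = 0.0177). It was higher there for Pdgfrb (0.435; -1.25 without and -0.81 with irradiation; adjusted p = 0.0177), Slc7a11 (0.737; -2.34 without and -1.60 with irradiation; adjusted p = 0.0248), Pfkp (0.345; -0.85 without and -0.51 with irradiation; adjusted p = 0.0227), Aldh1a3 (0.859; 1.19 without and 2.05 with irradiation; adjusted p = 0.0273), Sesn2 (0.496; -0.52 without and -0.02 with irradiation; adjusted p = 0.00931) and Sox11 (0.534; 0.24 without and 0.77 with irradiation; adjusted p = 0.0104). The mitochondrial share reached 1.23% in the irradiated APTK libraries and 0.586% in the irradiated APTKA libraries, and its part in these differences was not tested. Of these 12 calls 4 (Spry2, Sesn2, Plk3 and Sox11) held without each of the 16 single libraries, and 8 were lost without at least 1 (edgeR, adjusted p from 0.0505 to 0.0962). The losses numbered 1 of 16 for Gja1 (without APTKA II), 5 each for Pdgfrb, Spry1 and Tnfrsf21, 8 for Slc7a11, 9 for Pfkp, 10 for Aldh1a3 and 12 for Lif. Tnfrsf21 was lost without APTKA II, APTK II or IV, irradiated APTKA I or irradiated APTK III. Pfkp and Aldh1a3 were both lost without APTKA II, III or IV, APTK II or IV, irradiated APTKA I, III or IV or irradiated APTK III, and Aldh1a3 also without irradiated APTK II, with only the compared groups and with the replicate block.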

How the results depend on the processing

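The comparison was repeated under 8 other settings and without each of its 8 libraries. The 9324 calls ranged from 7668 to 9654 over the other settings and from 8873 to 9021 without 1 library, rises from 3781 to 4849 and 4394 to 4494, falls from 3887 to 5471 and 4479 to 4554, and calls of at least 2-fold from 892 (filter of 5 CPM, which tests fewer genes) to 2204 and 1759 to 1857. Of 214 named genes 212 kept direction and call in each of these 16 settings in which they were tested. Tgfb1, which did not pass, turned to -0.0491 with upper quartile scaling and -0.0145 with a filter of 5 CPM, and ranged from -0.0363 (without APTK I; -0.0228 without APTK III) to 0.123 without 1 library. Mki67, also not passing, ranged from -0.00635 (without APTKA III) to 0.209 without 1 library. The cytokine median turned to -0.0811 with a filter of 5 CPM. Irradiated-arm calls ranged from 7522 to 9201 and, without 1 library, from 8623 to 9169. Differences between the arms numbered 112 with DESeq2, 209 with no filter and 4 to 307 without 1 library, and the cause was not tested.

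Within 100 bases in place of 250, the motifs were found in 23.4% of NF-kB, 4.65% of ATF4, 0.0% of sterol and 32.0% of interferon list windows, against 1.36%, 0.706%, 0.434% and 2.12% of all windows. With the replicate number as a block 9277 genes were called. Same-numbered libraries correlated at -0.0213 to 0.0350 in their deviations, and with 4 pairs 1 of 4 correlated best with its own number. The labels do not say what a number marks. So few weak correlations cannot show whether same-numbered libraries share a culture or batch. On simulated counts for 14820 genes, 66% of 50 genes changed 1.5-fold, 82% of 50 changed 2-fold and all 50 changed 4-fold were recovered. Few genes were changed in the simulation, whereas 9324 were called in the comparison, and the adjustment of p-values depends on that number. These recoveries therefore cannot say how many changes of a given size the comparison missed.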

Other observations

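Clock genes moved in both directions. Of 17 tested circadian genes 11 rose and 4 fell (median 0.36). Nr1d1, which encodes the repressor REV-ERB-alpha, went from 4.61, 6.39, 5.63 and 4.71 CPM with APTK medium to 26.2, 21, 22.1 and 20.4 CPM with APTKA medium (2.07 ± 0.134), and it overlaps Thra on the opposite strand. Nr1d2, its relative, rose by 0.81 and Per1 by 0.71, while Arntl, which encodes the activator BMAL1, fell (-0.57), as did Per3 (-0.44), Cry1 (-0.28) and Rora (-0.20). The labels give no time of harvest.

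In retinoid and glucocorticoid genes 3 of 14 rose and 6 fell (median -0.25, and -0.13 with only the compared groups fitted). The retinoic acid binding protein gene Crabp2 went from 15.4, 13.3, 10.9 and 14.8 CPM to 1.38, 1.54, 1.48 and 1.73 CPM (-3.15 ± 0.364). The 2 retinaldehyde dehydrogenases that passed went opposite ways, Aldh1a1 from 109, 106, 90.0 and 98.8 CPM to 26.0, 28, 33.9 and 33.8 CPM and Aldh1a3 from 28.5, 35.3, 27.0 and 31.7 CPM to 87.6, 61.6, 67.8 and 62.3 CPM. Of 12 tested regulators of G protein signalling and stathmins 5 rose and 3 fell (median 0.28; 0.89, with 1 fall, over the members left by a filter of 5 CPM). Rgs16 went from 3.99, 4.55, 3.48 and 3.57 CPM to 45.5, 32.6, 37.7 and 32.0 CPM (3.24 ± 0.155), and Rgs1 had 3 counts with APTKA medium against 220 with APTK medium (ratio 75.9 lower, exact 95% counting interval 25.6 to 371).

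The following families were chosen by name pattern after values had been seen, and are given as descriptions beside the all-gene shares of 31.1% higher and 31.8% lower. The 2 kinds of ribosomal protein went apart: of 76 tested cytosolic members 60 fell (edgeR) with a median of -0.44, and of 77 mitochondrial members 51 rose and 6 fell (median 0.29). The cytosolic members together took 1.05 to 1.24% of counts with APTK medium and 0.838 to 0.904% with APTKA medium. Of 37 proteasome subunits 25 rose and 4 fell (median 0.36), and the falls were those of the immunoproteasome subunits Psmb8, Psmb9 and Psmb10 and of Psma5. Among 345 zinc finger genes named Zfp 192 rose and 45 fell (median 0.30). In 17 semaphorins 2 rose and 10 fell (median -0.39), in 19 integrin chains 2 rose and 10 fell (median -0.29), and in 30 potassium channel genes 6 rose and 17 fell (median -0.66). Of 28 genes of interferon-inducible families, many of them near-identical copies, 25 fell (edgeR; median -1.83).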
